A study of Rattus norvegicus with 6 samples.

Results

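miR-19a and miR-19b are a pair of sister microRNAs made from the gene cluster that runs from miR-17 to miR-92a-1. They were followed here in the lungs of rats after ischemia reperfusion (IR) and of sham-operated rats. Of the 693 miRNAs listed in the read count table, 4 carry the name miR-19a or miR-19b. They are rno-miR-19a-3p, rno-miR-19a-5p, rno-miR-19b-3p and rno-miR-19b-1-5p. The pair was chosen by the IR against sham contrast, in which miR-19b-3p did not fall while other members of that cluster lay lower. The IR against sham values of the members are therefore given as a description, and no p-value of theirs in that contrast is used as evidence.

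The IR group was lung of male Sprague-Dawley rats, 7 to 8 weeks of age and with no genetic alteration named, whose left hilum was closed for 45 min and then reperfused (3 libraries). The sham group was lung of rats of the same strain, sex and age opened in the same way with the vessels left unclamped (3 libraries). Surgery was done under urethane with mechanical ventilation. The sources used here give neither the time of reperfusion nor the side from which the lung piece came. The labels list each library as its own sample but name no animal, so p-values measure the spread between these samples. The RNA came from a piece of lung tissue with all its cell types, so that fewer cells of a type and less of a miRNA per cell cannot be told apart.

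A microRNA is cut from a hairpin precursor. Its 5p arm and its 3p arm come from the opposite sides of that hairpin, and usually one of them is kept. The kept strand guides the silencing complex to mRNAs that pair with its seed, which is nucleotides 2 to 8. The miR-17 to miR-92a-1 cluster is 1 primary transcript that holds 6 hairpins, those of miR-17, miR-18a, miR-19a, miR-20a, miR-19b-1 and miR-92a-1. Loss of the cluster is known to leave newborn mice with underdeveloped lungs, and in mouse B cell lymphoma miR-19 is the member that carries most of its oncogenic effect. A second cluster on the X chromosome, miR-106a to miR-363, holds the hairpin miR-19b-2.

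The mature sequences of the pair are shown because they differ by a single base. They are written 5′ to 3′ as in RefSeq (build GRCr8), and the capitals mark the seed.
miR-19a-3p: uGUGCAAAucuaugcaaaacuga
miR-19b-3p: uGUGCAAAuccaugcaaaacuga
Both are 23 nt long. Counted from 1 at the 5′ end of miR-19a-3p, the only substitution is U11C, which lies outside the seed. The seed GUGCAAA is carried by these 2 names and by no other of the 693 mature rat miRNA names in the RefSeq table used here. A read of one of them is thus 1 base away from the other, and the sources used here do not state how the authors' counting treated mismatches.

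The 3 hairpins are shown because they decide what a read can say about its origin. Capitals mark the annotated mature arms, the 5p arm first.
Mir19a: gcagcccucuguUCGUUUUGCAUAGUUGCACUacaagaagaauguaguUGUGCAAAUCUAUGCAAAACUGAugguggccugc
Mir19b1: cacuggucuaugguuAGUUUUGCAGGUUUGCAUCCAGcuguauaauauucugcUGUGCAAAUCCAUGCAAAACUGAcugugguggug
Mir19b2: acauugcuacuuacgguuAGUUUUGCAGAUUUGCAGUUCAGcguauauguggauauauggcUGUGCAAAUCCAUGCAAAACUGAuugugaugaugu
In GRCr8, Mir19a is at chr15:98588131-98588212 and Mir19b1 at chr15:98588433-98588519, both on the plus strand, within a cluster of 785 bases. Mir19b2 is at chrX:137343058-137343153 on the minus strand. miR-19b-3p is the same molecule from Mir19b1 and Mir19b2, so its reads cannot be split between the 2 clusters. miR-19a-3p comes from Mir19a alone. The 5p arms of the 2 miR-19b genes do differ, and only miR-19b-1-5p is among the listed names. The miR-19b-2-5p arm was not analysed here.

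The mature strands of the rest of the cluster are shown beside the pair because their seeds differ from that of miR-19. Capitals again mark nucleotides 2 to 8.
miR-17-5p: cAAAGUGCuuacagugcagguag
miR-18a-5p: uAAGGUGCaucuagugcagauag
miR-20a-5p: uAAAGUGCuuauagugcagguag
miR-92a-3p: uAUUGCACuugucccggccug
miR-17-5p and miR-20a-5p share 1 seed, miR-18a-5p differs from it by a base, and miR-92a-3p has the seed of miR-25 and miR-363. miR-17-5p and miR-92a-3p are, like miR-19b-3p, made from both clusters, while miR-18a-5p and miR-20a-5p come from the chromosome 15 cluster alone.

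The libraries held 3775663 to 11248166 miRNA reads, with the fewest in IR replicate 2 and the most in IR replicate 3. Levels are given as normalized CPM, which is reads per 1000000 after TMM scaling, a correction for a few miRNAs that take a large part of a library. Reads were counted without molecular identifiers, and the intervals and upper limits below therefore take in counting error alone. Sham replicate 3 stood apart in miR-21-5p, an abundant miRNA of injury and fibrosis, which took 24.2% of its reads and 9.66% to 13.5% of the reads of each other library. The 3 miRNAs of the lymphocyte list (miR-150-5p, miR-342-3p and miR-155-5p) and the 3 of the myeloid and leukocyte list (miR-223-3p and both arms of miR-142) were found in all libraries. The summed lymphocyte list was at 1015 to 1183 normalized CPM in IR and 1710.3 to 1773 in sham, the myeloid and leukocyte list at 1267 to 1543 in IR and 1678 to 2764 in sham, and the 5 epithelial miRNAs of the miR-200 family at 18673 to 19223 in IR and 12890.4 to 15883 in sham. In these 3 sums the groups did not overlap, and most of the lymphocyte sum was miR-150-5p. Taken singly, only miR-150-5p and miR-142-3p (lower in IR) and miR-200a-3p and miR-200b-3p (higher in IR) had groups that did not overlap. The groups overlapped in miR-342-3p, miR-155-5p, miR-223-3p, miR-142-5p, miR-200c-3p, miR-141-3p and miR-429. Over all tested miRNAs, 16.7% had each IR library below each sham library. The share with each IR library above each sham library was not counted. How usual the separation of the miRNAs higher in IR is among all tested miRNAs is therefore not shown. The 2 arms of the endothelial miR-126a (83159 to 105386 in IR, 88072 to 111221 in sham), the erythroid list (1493 to 2155 in IR, 1233 to 4048 in sham), the smooth muscle list and the striated muscle list overlapped between the groups. Within the striated muscle list, miR-1-3p was at 28.2, 35.1 and 30.2 in IR, against 14.4, 12.1 and 11.1 in sham. In the smooth muscle list, miR-143-5p was lower in each IR library than in each sham library. The other members of both muscle lists overlapped. All 25 marker miRNAs were detected in every library. The part of these cell types in the miR-19 values was not tested.

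miR-19b-3p was a miRNA of medium abundance in the rat lung. It had 4056, 3261 and 5903 reads in IR replicates 1, 2 and 3, and 5106, 6432 and 6676 reads in sham replicates 1, 2 and 3. In normalized CPM these were 612, 929.6 and 497 in IR, against 643, 570.3 and 748 in sham. IR replicate 2 was the highest and IR replicate 3 the lowest of all 6 libraries, so that the 3 sham libraries lay wholly within the range of the IR libraries. The group means were 679.8 ± 223.9 in IR and 654 ± 89.2 in sham (SD, n = 3 each). The log2 fold change of IR against sham was 0.06, with a standard error of 0.24. From high to low the order was IR replicate 2, sham replicate 3, sham replicate 1, IR replicate 1, sham replicate 2 and IR replicate 3. The highest value was 1.87 times the lowest, and the counting error of a single library was at most 1.75%, well below the spread between libraries. By its mean level miR-19b-3p stood 92nd among the 693 listed miRNAs, between miR-139-5p (809 ± 72.9 in IR, 535 ± 32.3 in sham) and miR-322-3p (689 ± 92.8 in IR, 618 ± 39.0 in sham). Its neighbours 1 and 2 places further off, miR-320-3p and miR-3553 above it and let-7d-3p and miR-423-5p below it, averaged 518 to 782 in IR and 561 to 728 in sham.

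miR-19a-3p was much rarer. It had 198, 200 and 284 reads in IR, against 345, 427 and 547 reads in sham. In normalized CPM these were 29.9, 57.0 and 23.9 in IR, against 43.5, 37.9 and 61.3 in sham. IR replicates 1 and 3 lay below every sham library, but IR replicate 2 lay above sham replicates 1 and 2, so the groups overlapped. The group means were 36.9 ± 17.6 in IR and 47.5 ± 12.2 in sham (SD, n = 3 each). The log2 fold change was -0.38, with a standard error of 0.35. The counting error reached 7.11% in a library. miR-19a-3p stood 216th of the 693 by its mean level.

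**Figure D1:**
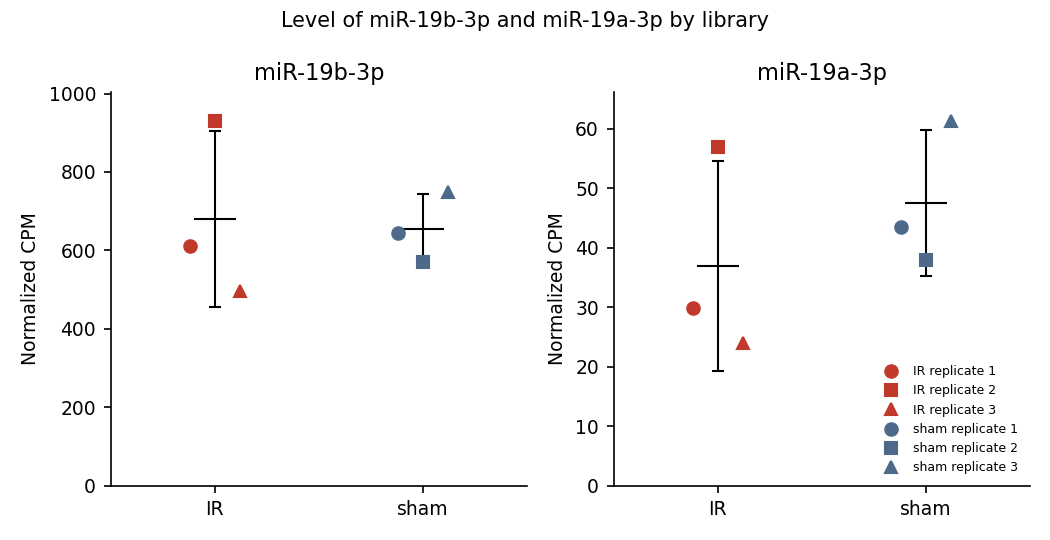
Normalized CPM (vertical axes, from 0) of miR-19b-3p and miR-19a-3p in the 3 IR and 3 sham libraries, with 1 point per library, a bar at the group mean and whiskers of 1 SD. IR replicate 2 is the highest IR library in both panels, and sham replicate 3 is the highest sham library in both.

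The 2 sisters varied together from library to library. On the log2 scale of normalized CPM over the 6 libraries, Pearson's r between miR-19b-3p and miR-19a-3p was 0.87 and Spearman's rho was 0.886. The same libraries chose the pair, so both values are given as a description without a test. With IR replicates 2 and 3 left out, the 2 libraries farthest from the median of miR-19b-3p, r was 0.833. With the group means taken out, r was 0.989, which is a description over 6 libraries and carries no test. The 2 miRNAs share library, depth and scaling factor. No other name in the table had counts nearly equal to those of a member in every library. Reads shared only in part, or between names 1 base apart, would not be seen by this rule.

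The difference in level between the sisters did not enter the choice of the pair and could be tested. Since both lengths are 23 nt and both reads come from 1 library, the ratio of reads needs no scaling. There were 20.5, 16.3 and 20.8 reads of miR-19b-3p for each read of miR-19a-3p in IR replicates 1, 2 and 3, against 14.8, 15.1 and 12.2 in sham replicates 1, 2 and 3. Over all libraries the geometric mean was 16.3, and the ratio was above 1 in 6 of 6 libraries (exact sign-flip permutation test of the mean log2 ratio, two-sided, p = 0.03125, the smallest p that 6 libraries allow). A ratio of reads need not be the ratio of molecules. miR-19b-3p has 2 genes and miR-19a-3p has 1. As a description, the ratio averaged 19.2 ± 2.50 in IR and 14.0 ± 1.58 in sham (SD, n = 3 each), and each IR library was above each sham library.

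The 5p arms were nearly absent. miR-19a-5p had 0 reads over the IR libraries and 1 read, in sham replicate 2, over the sham libraries. That is 1 of 2002 reads of the 2 arms of miR-19a over the 6 libraries, or 0.05% (95% exact interval 0.00126% to 0.278%). For the IR libraries alone, 0 of 682 reads allows a share of up to 0.44% if 3 reads are taken as the limit of a count of 0, and the exact 95% upper limit is 0.539%. miR-19b-1-5p had 7 reads in IR replicate 3 and 0 in IR replicates 1 and 2, against 1 read in each sham library. These 10 reads were 0.0318% of the 31444 reads of miR-19b-1-5p and miR-19b-3p (95% exact interval 0.0153% to 0.0585%). All IR reads of this arm came from the deepest library, in which its share was 0.118% (95% exact interval 0.0476% to 0.244%). The exact 95% upper limits were 0.0909% for 0 of 4056 reads in IR replicate 1 and 0.113% for 0 of 3261 reads in IR replicate 2 (0.074% and 0.092% with the limit of 3 reads), so these intervals overlap with that of IR replicate 3. The 5p arm is the only listed read that marks the chromosome 15 copy of miR-19b, and at this depth it could not show which copy the miR-19b-3p reads came from. Both 5p arms were too rare for the filter of the fit across miRNAs, which kept 2 of the 4 names.

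Of the 2 tested members, 0 passed an adjusted p of 0.05 from edgeR's quasi-likelihood test, while 44 of all 418 tested miRNAs did, which is 10.5%. With DESeq2 0 of the 2 members and 69 of 505 miRNAs passed, and with limma 0 of the 2 members and 50 of 418 miRNAs. An unadjusted p under 0.05 from edgeR was found for 0 of the 2 members and 110 of 418 miRNAs, and without IR replicate 2 for 1 of the 2 members and 105 of 436 miRNAs. Since the contrast chose the pair, nothing is read from these counts. The median log2 fold change over all tested miRNAs was -0.01.

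Next, the pair was set against the clusters it is made from. Apart from miR-19, 11 arms of the 2 clusters were tested, and all 11 had a negative log2 fold change, with a median of -0.99. Without sham replicate 2 this held for 10 of 11 arms, and with no filter for 13 of 15. Over all tested miRNAs, 214 of 418 were below 0. Of the 11 arms, 3 were called lower after IR (2.63% of all tested miRNAs were) and 0 higher. In 7 of the 11 each IR library lay below each sham library (16.7% of all tested miRNAs). With all libraries these 3 arms were among 11 miRNAs called lower. The count was 1 of 4 when sham replicate 3 was left out, 0 of 1 for IR replicate 1, 0 of 0 for IR replicate 3, 2 of 5 for IR replicate 2, 3 of 13 for sham replicate 1 and 5 of 17 for sham replicate 2. It was 5 (of 12 tested arms) of 26 with DESeq2, 5 of 12 with limma and 0 of 0 with the replicate number as a block. The arms that were called are miR-18a-5p, which shares all but a base of its seed with miR-17, miR-17-1-3p, the rarer strand of the miR-17 hairpin, and miR-92a-3p. Because the comparison was chosen for this pattern, these counts describe it and carry no further weight.

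In order of log2 fold change, miR-19b-3p (0.06) was the highest of the 13 tested arms and the only one above 0. Just below it came miR-92a-1-5p (-0.08, standard error 0.29), the rare strand of the miR-92a-1 hairpin with a mean of only 3.67 normalized CPM, and then miR-19a-3p (-0.38). The ranges of 1 standard error around these first 3 overlap. They were followed by miR-17-5p (-0.72), miR-92a-3p (-0.73), miR-17-2-3p (-0.73) and miR-20a-5p (-0.73), and the lowest was miR-18a-5p (-1.54, standard error 0.32).

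The levels of the 4 mates in each library show how the groups lay. miR-20a-5p, which shares its seed with miR-17-5p, was at 512, 801 and 489 normalized CPM in IR, against 994, 752 and 1245 in sham. IR replicate 2 was again the highest IR library, and here it was above sham replicate 2 only. miR-92a-3p was at 699, 733 and 695 in IR, against 1276, 1029.7 and 1212 in sham. The groups did not overlap, and IR replicate 2 was close to the other IR libraries. miR-17-5p was at 220.2, 365 and 248 in IR, against 509.6, 349 and 508 in sham, with IR replicate 2 above sham replicate 2. miR-18a-5p was at 7.70, 13.7 and 12.1 in IR, against 32.6, 22.1 and 42.2 in sham, and each IR library was below each sham library.

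**Figure D2:**
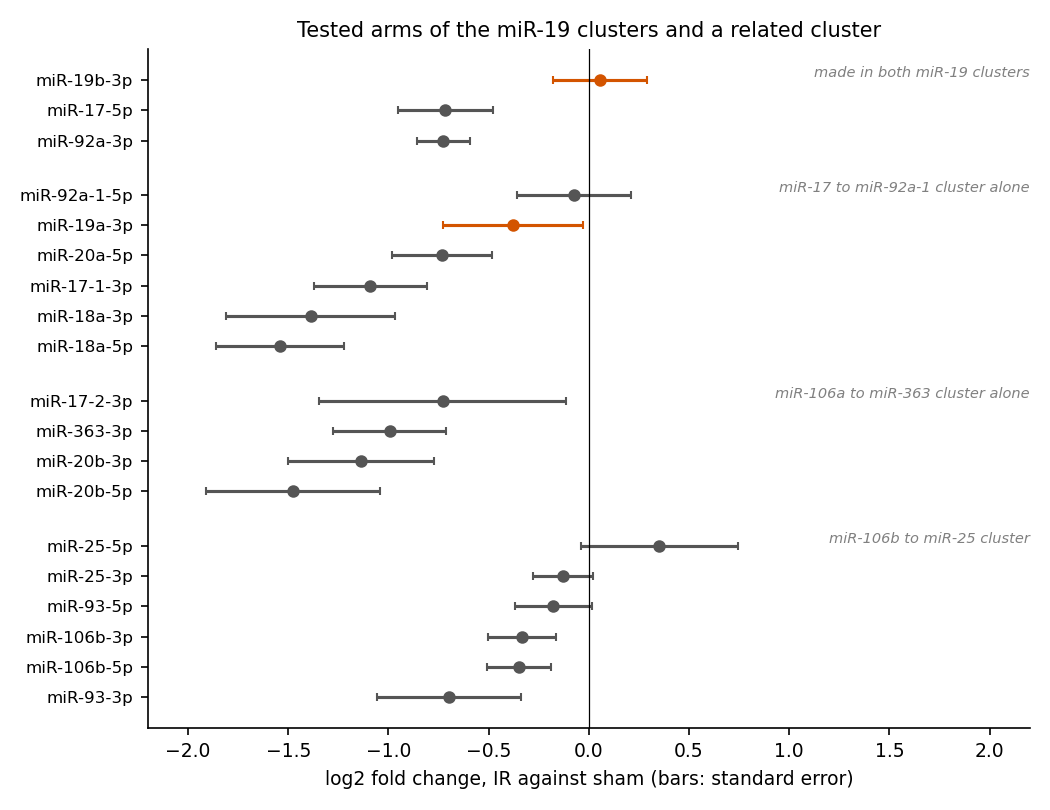
IR against sham as log2 fold change along the horizontal axis, with bars of 1 standard error (3 libraries in each group), for the tested arms of both miR-19 clusters and of the related miR-106b to miR-25 cluster, grouped by the cluster that makes them. The miR-19 members are in orange. miR-19b-3p lies at 0.06 and miR-19a-3p at -0.38, while the other arms of the 2 miR-19 clusters lie between -0.08 and -1.54.

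Ratios of reads within a library put the same contrast in a form that needs no scaling. They restate the pattern for which the pair was chosen and add no evidence for it. Reads of miR-19b-3p per read of miR-20a-5p were 1.20, 1.16 and 1.02 in IR, against 0.648, 0.758 and 0.601 in sham. Thus miR-19b-3p outnumbered miR-20a-5p in each IR library and was outnumbered by it in each sham library. Per read of miR-17-5p the values were 2.78, 2.55 and 2.01 in IR, against 1.26, 1.63 and 1.47 in sham. Per read of miR-92a-3p they were 0.876, 1.27 and 0.716 in IR, against 0.504, 0.554 and 0.617 in sham. Per read of miR-18a-5p they were 79.5, 67.9 and 41.0 in IR, against 19.7, 25.8 and 17.7 in sham. For each of these 4 mates every IR library was above every sham library, and the ratio was 1.66-fold (miR-92a-3p) to 2.91-fold (miR-18a-5p) higher in IR. Among the mates themselves, the ratio of miR-20a-5p to miR-17-5p was 2.16 ± 0.178 in IR and 2.19 ± 0.252 in sham (SD, n = 3 each), which differ by less than the spread between libraries. Reads of miR-18a-5p per read of miR-17-5p were 0.0350, 0.0375 and 0.0490 in IR, against 0.0640, 0.0632 and 0.0831 in sham. Here each IR library was below each sham library, so the mates did not all keep their proportions to each other.

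**Figure D3:**
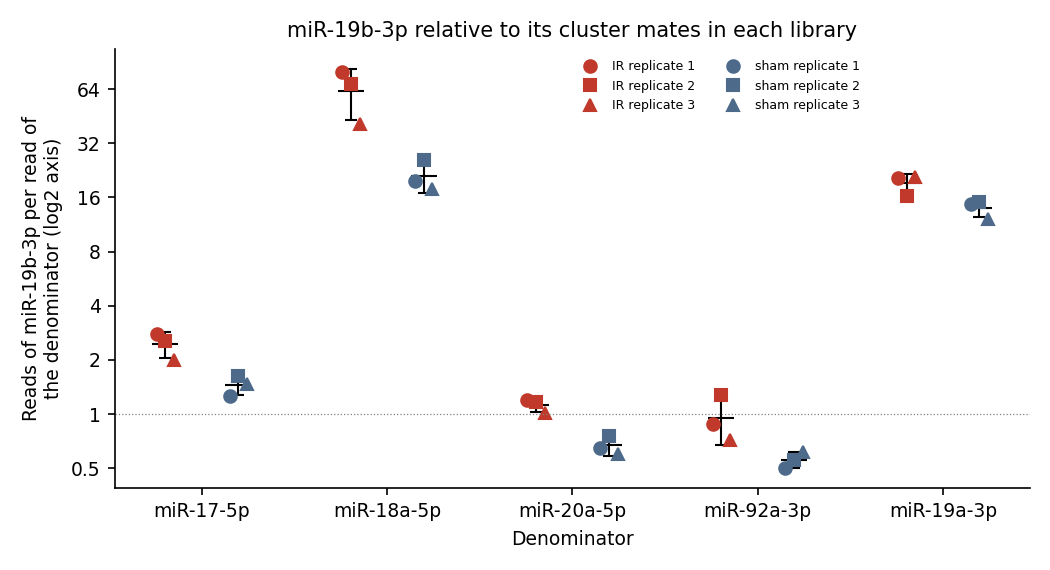
Reads of miR-19b-3p per read of miR-17-5p, miR-18a-5p, miR-20a-5p, miR-92a-3p and miR-19a-3p in each library (vertical axis, log2 scale), with IR in red left of sham in blue, 1 point per library, a bar at the group mean and whiskers of 1 SD. For every denominator the 3 IR points lie above the 3 sham points. With miR-20a-5p the ratio is 1.02 to 1.20 in IR and 0.601 to 0.758 in sham.

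Against the geometric mean of the 4 mates, miR-19b-3p stood at 3.90, 3.995 and 2.78 in IR and at 1.69, 2.05 and 1.76 in sham. The mean difference was 0.94 on the log2 scale, or 1.92-fold, with a pooled SD of 0.23 between the libraries of a group. As a share of the 6 main strands of the cluster (miR-17-5p, miR-18a-5p, miR-19a-3p, miR-20a-5p, miR-19b-3p and miR-92a-3p), miR-19b-3p made up 28.9% ± 3.40 of the reads in IR and 19.5% ± 1.13 in sham (SD, n = 3 each). The lowest IR library was at 25.3% (95% Wilson interval 24.8% to 25.9%) and the highest sham library at 20.7% (95% Wilson interval 20.2% to 21.1%). The share of miR-19a-3p was 1.54% ± 0.385 in IR and 1.41% ± 0.184 in sham, which differ by less than the spread.

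Relative to its mates miR-19a-3p differed less between the groups, by 0.49 on the log2 scale. Against the geometric mean of the 4 mates it was at 0.190, 0.245 and 0.134 in IR and at 0.114, 0.136 and 0.144 in sham, so that the groups overlapped. Its ratio was above all sham libraries in each IR library for 1 of the 4 mates, miR-18a-5p, with 3.88, 4.17 and 1.97 in IR, against 1.33, 1.72 and 1.45 in sham. Over the 4 mates the ratio was 1.22-fold to 2.13-fold higher in IR.

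The X-linked mates are given because their cluster also holds the second copy of miR-19b. Their levels do not show how many miR-19b-3p reads came from that copy. The names made by that cluster alone are miR-20b, miR-363 and miR-17-2-3p, of which miR-17-2-3p is from the gene that RefSeq calls Mir106a. All 4 tested arms that only this cluster makes were lower than sham in log2 fold change (-0.73 to -1.48), and 0 of the 4 were called by edgeR. miR-20b-5p, with the seed of miR-17, was at 4.08, 7.98 and 3.45 normalized CPM in IR, against 11.97, 8.69 and 20.5 in sham. miR-363-3p, with the seed of miR-92a, was at 34.4, 38.8 and 28.9 in IR, against 52.5, 53.3 and 96.8 in sham. In both the groups did not overlap. Per read of miR-20b-5p there were 116 to 150.2 reads of miR-19b-3p in IR and 36.5 to 65.6 in sham. Of the 5 other tested arms that only the chromosome 15 cluster makes, all were below 0 in log2 fold change and 2 were called lower.

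The related miR-106b to miR-25 cluster holds no miR-19 and lies within the gene Mcm7. Its 6 tested arms had a median log2 fold change of -0.26, with 0 called by edgeR. miR-93-5p, which has the seed of miR-17, was at 672, 934 and 663 normalized CPM in IR, against 878, 699 and 987 in sham. Like miR-19b-3p it was highest, within IR, in replicate 2 and, within sham, in replicate 3. The ratio of miR-19b-3p to miR-93-5p was 0.886 ± 0.124 in IR and 0.769 ± 0.0425 in sham (SD, n = 3 each), with overlapping groups.

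Leaving out IR replicate 2, the library in which both members were highest among the IR lungs, lowered both fold changes. It was also the shallowest library, with 3775663 reads. The part of depth in this was not tested. Without it, the log2 fold change of miR-19b-3p was -0.25 and that of miR-19a-3p -0.83. Without IR replicate 3 they were 0.28 and -0.09. Without sham replicate 3, the library with the high miR-21-5p, they were 0.15 and -0.17, and without sham replicate 2 they were -0.01 and -0.49. The sign of miR-19b-3p therefore depended on which library was left out, while that of miR-19a-3p was negative in all 6 cases. In each of these 6 fits miR-19b-3p lay above miR-17-5p, miR-18a-5p, miR-20a-5p, miR-92a-3p and miR-19a-3p. Its difference in log2 ratio to the 4 mates between IR and sham was lowest, at 0.85, when IR replicate 2 was left out and highest, at 1.11, when IR replicate 3 was.

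**Figure D4:**
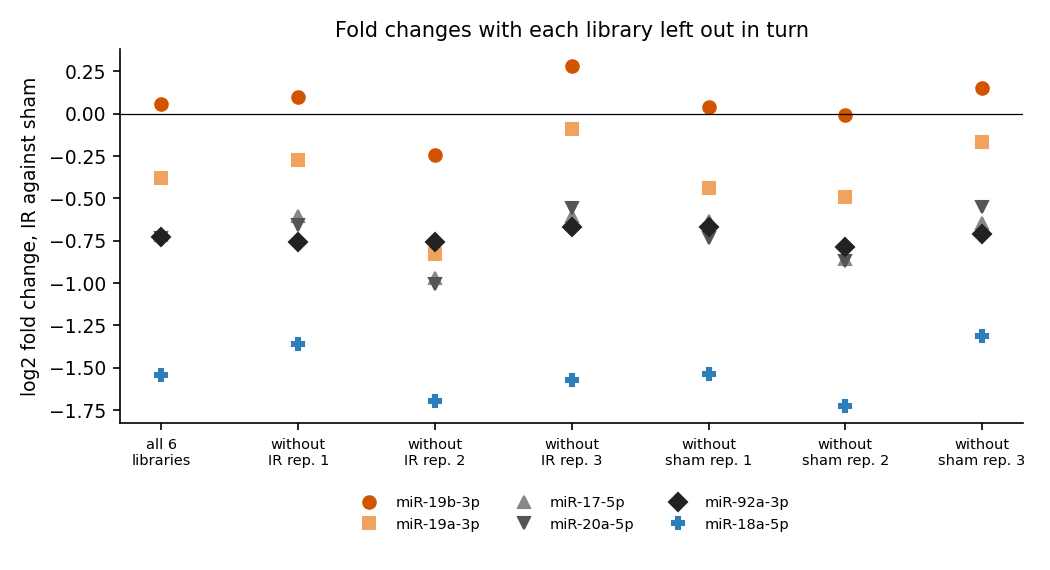
IR against sham as log2 fold change (vertical axis) for miR-19b-3p, miR-19a-3p and 4 cluster mates with all 6 libraries and with each library left out in turn (horizontal axis). miR-19b-3p is at its lowest, -0.25, with IR replicate 2 left out and at its highest, 0.28, with IR replicate 3 left out, and in each case it is the highest of the 6 miRNAs.

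The spread of both members within a group was wider than usual for their level. The pooled within-group SD of log2 normalized CPM was 0.35 for miR-19b-3p and 0.52 for miR-19a-3p, against a median of 0.29 over all tested miRNAs. The 50 tested miRNAs nearest in level had a median SD of 0.19 around miR-19b-3p and 0.31 around miR-19a-3p. The spread was not equal in the groups. For miR-19b-3p the highest library was 1.87 times the lowest in IR and 1.31 times in sham. For miR-19a-3p these values were 2.38 in IR and 1.62 in sham.

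Finally, the miRNAs whose pattern over the 6 libraries was most like that of miR-19b-3p were ranked by Pearson's r on log2 normalized CPM, as a description. They were the predicted miRNA novel_125 (r = 0.948), miR-30e-5p (0.944), miR-103-3p (0.943), miR-125a-5p (0.929) and miR-140-5p (0.927), of 417 others. All of these were highest, among the IR libraries, in replicate 2. The predicted one was rare, with 20, 20 and 30 reads in IR, against 32, 38 and 46 in sham. Whether its reads overlap with those of a member was not tested. miR-30e-5p, an abundant lung miRNA, was at 9042, 12058 and 7092 in IR, against 7813, 7490.0 and 9539 in sham. miR-19a-3p ranked 12th, miR-93-5p 16th, miR-20a-5p 62nd (0.57), miR-17-5p 78th (0.479) and miR-92a-3p 182nd (0.0993). For miR-19a-3p the list was novel_125 (0.977), miR-425-5p (0.967), miR-362-5p (0.952), miR-93-5p (0.94) and let-7f-5p (0.921), followed by miR-20a-5p in 7th place (0.889) and miR-19b-3p in 11th. miR-425-5p was at 569.8, 961 and 598 normalized CPM in IR, against 813, 748 and 1017 in sham. With the group means taken out, r between miR-19b-3p and miR-20a-5p was 0.919 and that between miR-19a-3p and miR-20a-5p 0.947. All these values share libraries and scaling factors.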

How the data were processed

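Small RNA libraries of 3 IR and 3 sham rat lungs were analysed from 1 table. The authors deposited a whole-number count for each miRNA in each library. They also deposited TPM, here the count scaled to a library sum of 1000000 without regard to length. The submitters' processing notes name Bowtie. The sources used here name no genome build, counting tool or mismatch setting. Columns without a sample numbered 0.

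The IR against sham fit was made with edgeR 4.0.16 in R 4.3.3 (filterByExpr, minimum count 10, minimum total 15, TMM, quasi-likelihood test, Benjamini-Hochberg), and figures drawn in Python 3.11.15 with matplotlib 3.10.9. Standard errors were taken from the fold change and its F statistic. DESeq2 1.42.0, limma 3.58.1 on log2(TPM + 1), other scalings and filters, the replicate block and leaving out each library were alternatives. The test was checked on simulated counts. Likeness used log2(normalized CPM + 0.5). A name was taken to share reads with a member if, at a mean of at least 5 reads, no library's counts were more than 5% or 2 reads apart.

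The members, lists and rules were chosen with earlier results of these data known. Named miRNAs are the members, all listed arms of the 3 clusters, the 5 miRNAs most like each member and the 3 nearest above and below miR-19b-3p in level. Not all of them are given with values. The marker lists and miR-21-5p, named after its values were seen, are given beside them. Sequences were read from RefSeq (GRCr8), in which all 4 members matched. No coordinates were compared with the table.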

Additional observations from a re-analysis of the deposited data

How the results depend on the processing

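The number of miRNAs called was 44. It was 26 with 10 reads required in every library, which tests 341 miRNAs, and 69 with DESeq2, which tests 505. Leaving out 1 library gave 2 to 57, namely 2 when IR replicate 3 was left out, 17 for IR replicate 2, 24 for IR replicate 1 and 21 for sham replicate 3. With the replicate number as a block edgeR called 0 (84 had an unadjusted p under 0.05, and DESeq2 and limma without the block called 69 and 50). The labels give no pairing beyond the number, and the deviations of same-numbered libraries correlated at -0.25, -0.38 and -0.16. With 3 libraries per group these values cannot show whether a pairing or a common batch exists. The log2 fold change of miR-19b-3p was 0.01 to 0.10 under the 7 other settings and -0.25 to 0.28 with 1 library left out. That of miR-19a-3p was -0.44 to -0.33 and -0.83 to -0.09. The miR-19b-3p to miR-19a-3p ratio was 15.5 to 17.3 with 1 library left out, where 5 libraries allow an exact p of no less than 0.0625, and 19.1 in IR alone and 14.0 in sham alone. The log2 ratio of miR-19b-3p to its mates differed between the groups by 0.75 with their summed reads as denominator and by 1.01 without miR-92a-3p, and that of miR-19a-3p by 0.30 and 0.56, against 0.94 and 0.49. The main limits are 3 libraries per group, the 198 to 547 reads behind miR-19a-3p, and reads of miR-19b-3p that fit 2 genes.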
